A study of Pimephales promelas with 51 samples.

Results

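Mitosis and chromosome segregation genes were followed in whole fathead minnow larvae exposed to 2 synthetic glucocorticoids. The set holds 44 genes chosen by symbol for their part in cell division, with earlier results of these data known. The shares over all genes set beside its counts are therefore not an independent test. Of the 44 genes, 41 had a row of their own among the 36695 genes counted. No row carried the symbols ccnb1, incenp and cenpa. Larvae of the strain GLTED-Duluth-wt, 5 to 6 days after fertilisation and of undetermined sex, were kept for 24 h without water renewal in dexamethasone, in fluticasone propionate or in DMSO, the solvent control that every comparison with untreated larvae shares. RNA came from pooled whole-body homogenates, and 3′ ends of messenger RNA were sequenced in 51 libraries, 3 for each of 17 groups. Both compounds are corticosteroids that activate the glucocorticoid receptor, and fluticasone propionate differs from dexamethasone in its esterified, sulphur-containing side chain. Groups are named by their labelled concentrations, 0.008, 0.025, 0.08, 0.25, 0.8, 2.5, 8 and 25 µM for dexamethasone and 0.003, 0.006, 0.01, 0.019, 0.034, 0.06, 0.1 and 0.19 µM for fluticasone propionate. The measured concentrations of the highest groups were 23.7 and 0.0597 µM.

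In a dividing cell, cyclin-dependent kinase drives entry into mitosis, the chromosomes condense, and kinetochores built on the centromeres attach them to the spindle. The spindle checkpoint holds the anaphase-promoting complex inactive until attachment is complete, after which separase cuts cohesin, the sister chromatids part and cytokinesis divides the cell. Most of these genes are transcribed in the last phases of the cell cycle, so that their RNA is commonly used as a readout of dividing cells, which in a fish larva lie among others in the retina, brain, gut and skin. The roles given here are known mainly from yeast, frog and mammalian cells.

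Reads assigned to genes numbered 1316614 to 2097358 per library, and the 41 genes took 488 to 1806 of them, and at 25 µM dexamethasone 24 of the 36 genes tested had fewer than 20 reads in every library. Levels are counts per 1000000 reads in genes after TMM scaling (CPM), changes are log2 fold changes against DMSO with their standard error and n = 3 libraries a group, and a gene is called where the adjusted p of edgeR's quasi-likelihood test, with Benjamini-Hochberg adjustment over all genes tested, is under 0.05. The labels do not say whether the replicates A, B and C of a group were separate pools of larvae, so a p-value speaks only of the scatter among libraries, which may be technical. The share of reads that matched no gene feature, called reads outside genes here, was 22.6 to 33.6%, and it was above 30% in 7 treated libraries. A filter on low counts left 36 of the 41 genes in the dexamethasone fit and 35 in that of fluticasone propionate, which dropped the separase gene espl1. The genes outside both fits were ccnb2 and kif23, with 3 and 2 reads over the 51 libraries, aurkb with 63, spc25 with 179 and cdca8 with 234. The filter required about 6.15 CPM in 3 libraries of the dexamethasone fit. Among its 36 genes 11 were under that level in all 3 libraries at 25 µM, and cenpx and aurka passed through 4 libraries each, of which 2 were DMSO libraries.

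The summed level of the 41 genes was lowest at the highest concentration of each compound. It was 647.9, 770.2 and 558.7 CPM in replicates A, B and C of DMSO and 382.9, 337.2 and 357.8 CPM at 25 µM dexamethasone, which is 54.5% of the DMSO mean. At 8, 2.5 and 0.8 µM it was 74.0, 78.3 and 76.7% of the DMSO mean, and at the 4 lower concentrations 91.2 to 103%. The libraries at 0.19 µM fluticasone propionate held 465.5, 471.5 and 446.8 CPM, 70.0% of the DMSO mean, and those at 0.1 µM 77.0%. At both highest concentrations all treated libraries lay below all DMSO libraries. This also held at 8 and 2.5 µM dexamethasone, but not at 0.8 µM. The libraries at 0.8 µM were spread widely, with 583.0, 526.1 and 406.2 CPM in replicates A, B and C, so that group mean depends much on replicate C. At 0.1 µM fluticasone propionate all treated libraries lay below all DMSO libraries too, though narrowly, with replicate B at 557.3 CPM. A fall in whole larvae can reflect fewer dividing cells or less RNA of these genes per cell, which cannot be told apart here.

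**Figure D1:**
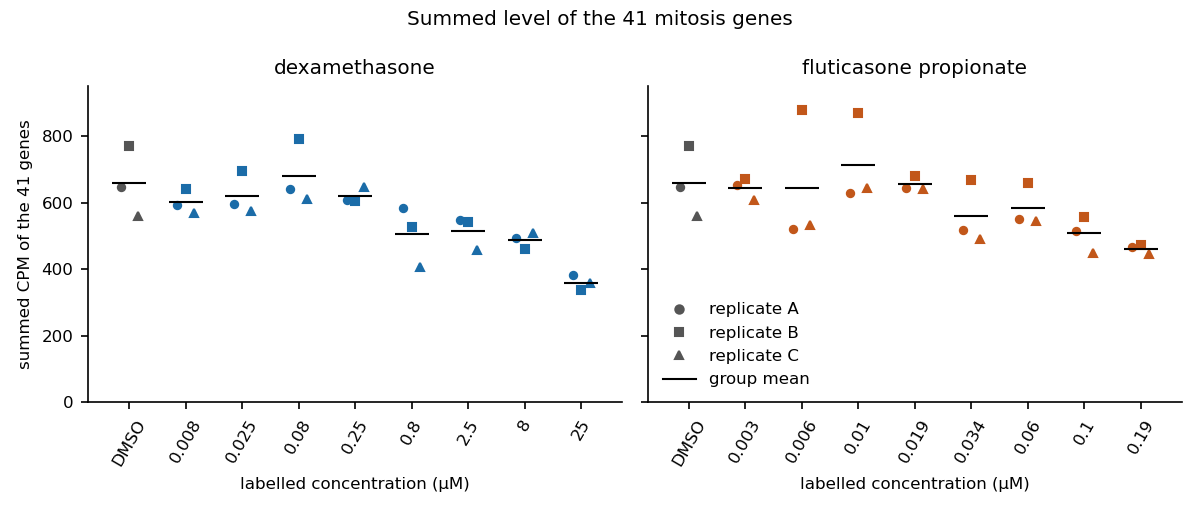
Summed level of the 41 mitosis genes in CPM (vertical axis) by labelled concentration in µM (horizontal axis, evenly spaced), for dexamethasone on the left and fluticasone propionate on the right. Each point is a library, with the marker giving the replicate letter, and each bar is a group mean; the 3 libraries at 25 µM dexamethasone lie between 337.2 and 382.9 CPM and the 3 DMSO libraries, drawn in both panels, between 558.7 and 770.2 CPM.

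The first comparison asked which of these genes responded to 25 µM dexamethasone. Of the 36 genes tested 8 fell and none rose, namely kpna2, prc1a, tpx2, nusap1, kif20a, cenpx, spc24 and mki67, where 0.642% of all 18075 genes tested were called lower. The 8 were spread over 4 of the 7 roles, with 4 among the spindle motors and microtubule organisers. The import receptor gene kpna2 is the only call in the role of cyclins, kinases and the anaphase switch. All 36 had a fold change below 0, against 49.4% of all genes, with a median of -0.93 against 0.004 over all genes. In 22 of them all 3 treated libraries lay below all 3 DMSO libraries, as in 7.98% of all genes, and 23 had an unadjusted p under 0.05, against 10.1%. Without the filter on low counts, 39 of the 41 genes were below 0 with a median of -0.92, and 12 were called lower, where 1.16% of all genes were called in either direction.

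In the role of cyclins, kinases and the anaphase switch 1 of 8 genes fell, where 0.642% of all genes were called lower. It was kpna2, which was placed in this role but is none of these. The gene kpna2, for a nuclear import receptor known to bind the spindle factor TPX2 and hold it inactive, read 29.96, 34.4 and 29.9 CPM in DMSO and 4.96, 8.24 and 10.999 CPM at 25 µM. The treated libraries lay far below the DMSO libraries, and the fold change was -2.01 ± 0.32 (adjusted p = 7.01e-05). The gene for the kinase that starts mitosis, cdk1, read 8.48, 14.6 and 10.2 CPM in DMSO and 6.45, 5.07 and 5.87 CPM at 25 µM. Its groups did not overlap, but its fold change of -0.92 ± 0.36 was not called (adjusted p = 0.271). Uncalled values of other genes were -1.71 ± 0.51 for ube2c, which encodes the ubiquitin-conjugating enzyme of the anaphase-promoting complex, -1.25 ± 0.56 for espl1, -1.17 ± 0.37 for the mitotic kinase gene plk1 and -1.15 ± 0.34 for the cyclin A gene ccna2. The groups overlapped for cdc20, the activator of that complex (-0.15 ± 0.49), and for the spindle pole kinase gene aurka (-0.93 ± 0.56). The median of the 8 genes was -1.16.

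The spindle genes held 4 of the 8 calls, among 7 genes tested, where 0.642% of all genes were called lower. The gene tpx2, whose product starts microtubule growth around chromosomes and activates the aurora A kinase, read 41.8, 46.7 and 29.2 CPM in DMSO and 17.9, 17.7 and 8.07 CPM at 25 µM, and fell by 1.40 on the log2 scale (SE 0.27, adjusted p = 0.00134). The microtubule-bundling gene nusap1 read 27.1, 29.8 and 18.4 CPM in DMSO and 12.9, 9.51 and 10.3 CPM at 25 µM, a fold change of -1.19 ± 0.32 (adjusted p = 0.0392). Both genes had every treated library below every DMSO library, with DMSO replicate C the lowest of its group. The kinesin gene kif20a, needed at the central spindle in cytokinesis, read 20.4, 25.7 and 16.3 CPM in DMSO and 9.92, 11.4 and 7.33 CPM at 25 µM, a fold change of -1.11 ± 0.28 (adjusted p = 0.0255).

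The genome carries a pair of genes for the antiparallel microtubule bundler PRC1, and they gave unlike values. The gene prc1a read 9.61, 13.4 and 7.48 CPM in DMSO and 2.48, 3.80 and 2.1998 CPM at 25 µM, which are 5, 6 and 3 reads, and its fold change was -1.83 ± 0.51 (adjusted p = 0.0498). Its partner prc1b read 9.05, 8.75 and 6.80 CPM in DMSO and 8.43, 5.07 and 9.53 CPM at 25 µM, with overlapping groups and a fold change of -0.11 ± 0.40 that was not called. The difference between the pair was not tested, and the counting of reads shared by near-identical copies is not given in the sources used here. The chromosome-binding kinesin gene kif4 had -0.18 ± 0.20 and the bipolar spindle motor gene kif11 -1.45 ± 0.44, neither of them called.

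At kinetochores and centromeres 2 of 6 genes fell, where 0.642% of all genes were called lower. The gene cenpx, for a histone-fold protein of the centromere that also serves in DNA repair, read 6.22, 7.001 and 6.80 CPM in DMSO and 1.49, 0.634 and 1.47 CPM at 25 µM. These are 3, 1 and 2 reads against 11, 12 and 10, so the size of its fold change of -2.39 ± 0.61 (adjusted p = 0.0262) is uncertain. The NDC80 complex joins the kinetochore to microtubules, and its gene spc24 read 24.9, 51.9 and 20.4 CPM in DMSO and 22.3, 10.8 and 10.999 CPM at 25 µM. Replicate A of the treated group lay above replicate C of DMSO, so the groups overlapped, and the fold change was -1.10 ± 0.26 (adjusted p = 0.0135). The high DMSO library, replicate B, carried much of that difference: without it the fold change of spc24 was -0.58 with adjusted p = 0.576. Its call was also lost with only the 6 libraries compared and with all 51 libraries in the fit. The other NDC80 complex genes had uncalled values of -1.77 ± 0.61 for ndc80 and -0.50 ± 0.51 for nuf2, and the kinetochore motor gene cenpe and its partner cenpf had -0.94 ± 0.55 and -0.69 ± 0.30.

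With the 27 libraries of the fit, edgeR called no gene of the spindle checkpoint at 25 µM. An unadjusted p under 0.05 was found for 2 of the 5, against 10.1% of all genes. DESeq2 made no call among them, but it gave no adjusted p for bub3 and so could not call it. The other checkpoint genes had fewer reads than bub3. Whether DESeq2 gave them an adjusted p is not listed here, so its lack of calls carries no weight. The fold changes of the 5 genes were -0.88 ± 0.35 for bub1, -0.83 ± 0.27 for bub3, -0.64 ± 0.48 for bub1bb, -0.46 ± 0.40 for mad2l1 and -0.41 ± 0.27 for ttk, the kinase that starts the signal. The bub3 libraries read 25.4, 26.3 and 26.5 CPM in DMSO and 16.9, 14.6 and 11.7 CPM at 25 µM and did not overlap (adjusted p = 0.125). With only the 6 libraries compared, bub3 was called by edgeR (adjusted p = 0.0477). No other setting called it, with edgeR adjusted p from 0.0670 to 0.386. The chromosomal passenger complex, which corrects faulty attachments, was measured in the fit only through birc5a, the survivin gene, with -0.35 ± 0.54 and 5, 5 and 4 reads at 25 µM.

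Of the 6 genes of chromosome structure, mki67 fell, where 0.642% of all genes were called lower. Its protein Ki-67 coats mitotic chromosomes and is the usual marker of cycling cells. It read 52.0, 64.2 and 40.1 CPM in DMSO and 24.3, 19.0 and 22.7 CPM at 25 µM, with no overlap and a fold change of -1.24 ± 0.22 (adjusted p = 0.000406). The topoisomerase gene top2a, which untangles sister chromatids, read 93.8, 119.6 and 91.1 CPM in DMSO and 73.9, 57.0 and 79.2 CPM at 25 µM, again with no overlap, and its fold change of -0.54 ± 0.15 lay just outside the threshold (adjusted p = 0.0521). It was called by DESeq2 (adjusted p = 0.0471), by edgeR without the filter on low counts (0.0352) and by edgeR with only the 6 libraries compared (0.0175). With 1 library left out, edgeR called it only without DMSO replicate C (adjusted p = 0.0496). The other fits of that kind gave edgeR adjusted p from 0.0564 to 0.455, and without DMSO replicate B its fold change was -0.40. The condensin genes had uncalled values from -1.31 ± 0.46 for ncaph to -0.29 ± 0.40 for ncapg. The cytokinesis genes racgap1, anln and ect2, which set up and scaffold the contractile ring, had -0.94 ± 0.28, -0.88 ± 0.38 and -0.40 ± 0.34, none of them called.

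Leaving out 1 library at a time, kpna2, tpx2 and mki67 remained called in each of the 6 fits. The count of 8 became 3 without DMSO replicate B or replicate C at 25 µM, 4 without DMSO replicate A, and 5 without replicate A or B at 25 µM. Of those 5, 4 were among the 8, and the other was kif11 without replicate A and racgap1 without replicate B. Without DMSO replicate C the count was 8, with top2a in place of cenpx. The gene cenpx was lost in each of the 6 fits. No share over all genes is given here for these fits. DESeq2 called 3 of the 8, mki67, spc24 and tpx2, and top2a, and gave no adjusted p for the other 5.

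**Figure D2:**
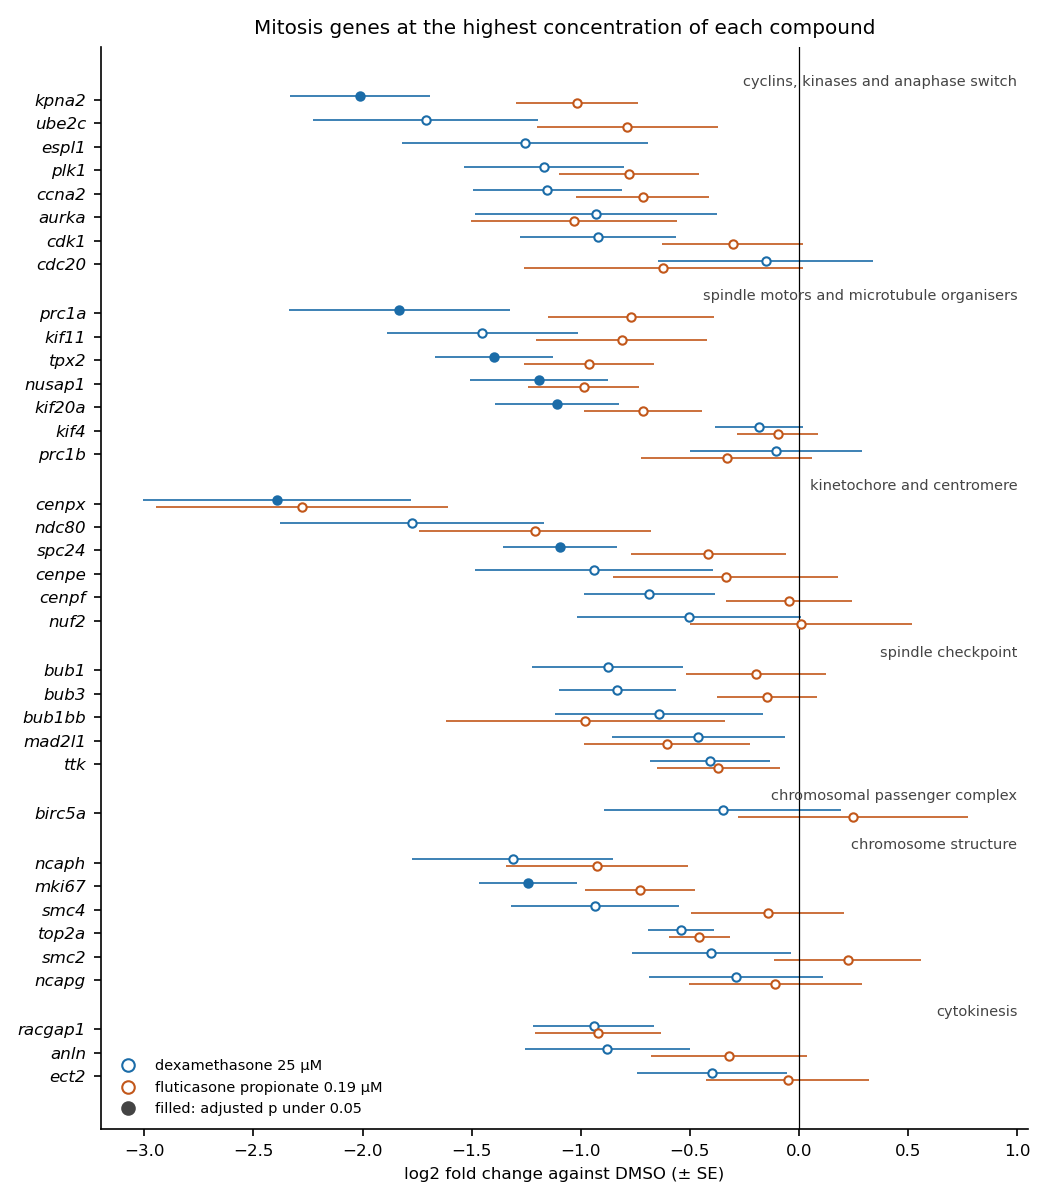
Log2 fold change against DMSO (horizontal axis, with bars of 1 SE) of each mitosis gene tested at 25 µM dexamethasone (blue) and 0.19 µM fluticasone propionate (orange), grouped by role. Filled points are called; 8 blue points are filled and every blue point lies below 0, and no orange point is filled. The measured concentrations differ, at 23.7 and 0.0597 µM.

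The missing symbols ccnb1, incenp and cenpa were counted under gene numbers, which the RefSeq gene table of assembly fPimPro1.hap1.1 names. The row named incenp, for the scaffold of the passenger complex, read 52.6, 58.3 and 38.7 CPM in DMSO and 24.8, 13.9 and 29.3 CPM at 25 µM, with no overlap and a fold change of -1.15 ± 0.22 (adjusted p = 0.00134). The row named ccnb1, for cyclin B1, read 10.7, 9.34 and 10.9 CPM in DMSO and 3.97, 5.07 and 3.67 CPM at 25 µM, with no overlap and an uncalled value of -1.27 ± 0.44. A row named kif23 beside the nearly empty row of that symbol had -0.21 ± 0.38, uncalled, and the row named cenpa had 101 reads in all. These rows are not among the 41 genes and enter no count given here.

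At lower concentrations of dexamethasone few genes were called. At 0.8 µM 2 of 36 fell, where 1.33% of all genes were called lower. The libraries of nusap1 read 14.8, 10.04 and 8.43 CPM there, a fold change of -1.20 ± 0.31 (adjusted p = 0.0276), and those of mki67 27.03, 31.7 and 33.7 CPM, a fold change of -0.76 ± 0.21 (adjusted p = 0.0365). All of these libraries lay below the DMSO libraries, as did those of 14 of the 36 genes in all, against 11.3% of all genes tested. The share of reads outside genes averaged 30.4 ± 2.76% (SD, n = 3) in that group and 25.0 ± 0.45% in DMSO, and with that share as a covariate no member was called, the fold changes being -0.74 for nusap1 and -0.39 for mki67. Without the libraries over 30% outside genes, nusap1 was at -1.45 and called by edgeR (adjusted p = 0.0140), mki67 was at -0.69 and not called (adjusted p = 0.123), and kpna2 was called. The count was also 0 without DMSO replicate A or B, or replicate A or C at 0.8 µM, and without replicate B at 0.8 µM both genes were lost while kif20a and tpx2 were called.

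Between 0.8 and 25 µM no member was called by edgeR in the filtered fit of 27 libraries. Without the filter it called kpna2, mki67 and tpx2 at 8 µM, where 0.4999% of all genes were called. With only the 6 libraries compared it called the same genes at 8 µM, and these with ccna2 at 2.5 µM. At 8 µM, where 0.0775% of all genes were called lower, 12 of 36 had an unadjusted p under 0.05, against 9.01% of all genes, and DESeq2 called mki67. The median was -0.46, and 12 genes had all treated libraries below DMSO, against 7.96% of all genes. At 2.5 µM, where 0.0664% were called lower, 10 had an unadjusted p under 0.05, against 9.63%, DESeq2 called none, the median was -0.48 and 8 did not overlap, against 9.43%. The mean of cdk1 was 4.80 ± 1.70 CPM (SD, n = 3) at 2.5 µM and 11.1 ± 2.32 CPM at 8 µM, so cdk1 did not fall in step with the concentration.

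In the 4 groups at 0.25, 0.08, 0.025 and 0.008 µM no member was called by edgeR or DESeq2, where 0.00553, 0.00, 0.00 and 0.00% of all genes were called lower. An unadjusted p under 0.05 was found for 4, 1, 3 and 2 members, against 11.2, 5.82, 6.94 and 3.45% of all genes. The medians of the 36 genes were -0.15, 0.04, -0.17 and -0.16, and at 0.08 µM 21 members were above 0. The cytokinesis activator gene ect2 stood above DMSO in these groups without being called, with values of 0.75 ± 0.31, 0.67 ± 0.31, 0.88 ± 0.30 and 0.75 ± 0.31 from the lowest concentration upward. This was not particular to the low groups. Uncalled values of ect2 were 0.27, 0.53 and 0.44 at 0.8, 2.5 and 8 µM. They were 0.403 to 0.736 in the fluticasone propionate groups below 0.19 µM. At 25 µM dexamethasone and 0.19 µM fluticasone propionate ect2 was below 0. Its DMSO libraries read 13.6, 15.2 and 7.48 CPM and those at 0.08 µM 20.6, 29.6 and 17.1 CPM, without overlap. Those at 2.5 µM read 18.9, 17.02 and 16.8 CPM, also without overlap.

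**Figure D3:**
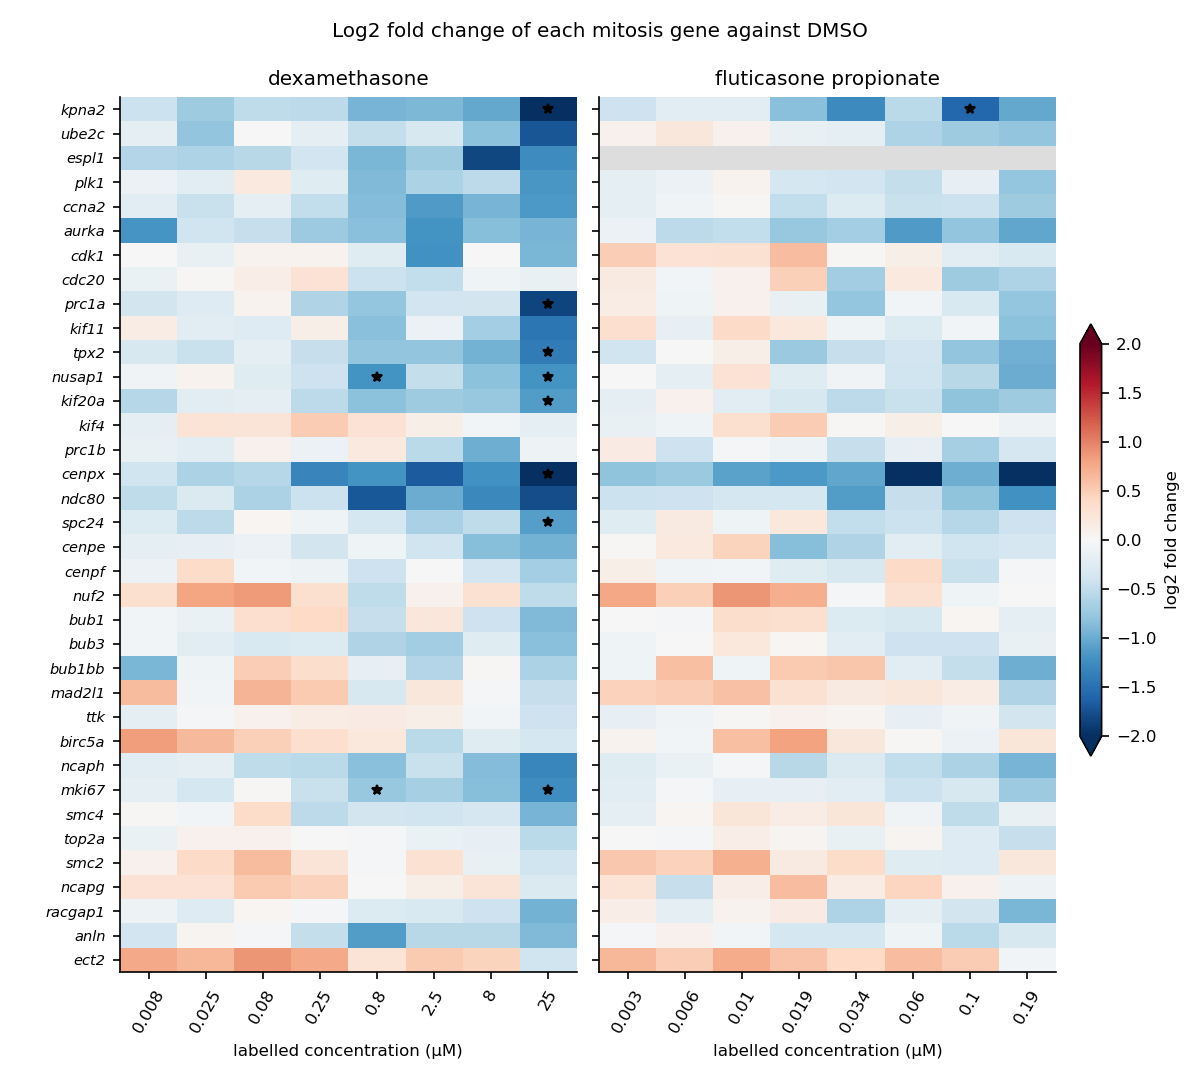
Log2 fold change against DMSO of each mitosis gene tested (rows, ordered by role) at each labelled concentration in µM (columns), with stars at called values and grey for the untested espl1. Blue marks values below 0; kpna2 is starred at 25 µM dexamethasone and 0.1 µM fluticasone propionate, and nusap1 and mki67 at 0.8 and 25 µM dexamethasone.

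The next comparison asked whether the genes followed the concentration of dexamethasone among the 24 treated libraries, with no use of DMSO. Slopes are log2 changes per 10-fold rise in concentration. Of 34 genes tested 6 fell, where 0.858% of all genes did: mki67, tpx2, nusap1, kpna2, ccna2 and birc5a. All 34 slopes were below 0, against 52.4% of all genes, with a median of -0.22 against -0.004. The group means of mki67 were 46.3, 40.9, 53.0, 38.6, 30.8, 33.1, 28.8 and 22.0 CPM from the lowest to the highest concentration, and its slope was -0.29 ± 0.05 (adjusted p = 0.000195). The slopes of tpx2 (-0.28 ± 0.06, adjusted p = 0.00232), nusap1 (-0.33 ± 0.07, adjusted p = 0.00495) and kpna2 (-0.30 ± 0.07, adjusted p = 0.0165) were alike in size.

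The other 2 genes in the trend were not called against DMSO in the fit of 27 libraries, though ccna2 was called at 25 µM in the unfiltered fit and in that of the 6 libraries compared. The libraries of birc5a read 5.33, 7.98 and 6.12 CPM at 0.008 µM and 2.48, 3.17 and 2.93 CPM at 25 µM, a slope of -0.38 ± 0.10 (adjusted p = 0.0347). Its DMSO libraries, at 4.52, 2.92 and 3.398 CPM, lay below all 3 libraries of the lowest concentration, so its slope runs from above DMSO. In the fit of 27 libraries birc5a passed the filter on low counts through 5 libraries, 0 of them DMSO and 0 at 25 µM. It was thus kept through libraries where it was high, which limits what its slope shows. The libraries of ccna2 read 16.0, 22.1 and 8.84 CPM at 0.008 µM and 8.93, 5.07 and 10.999 CPM at 25 µM, which overlap, and its slope was -0.29 ± 0.08 (adjusted p = 0.0237). Only mki67 remained called without the highest concentration and without each replicate letter. Without all libraries of replicate B it was the only call, and birc5a was not tested there. Without A or without C 4 calls were made.

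**Figure D4:**
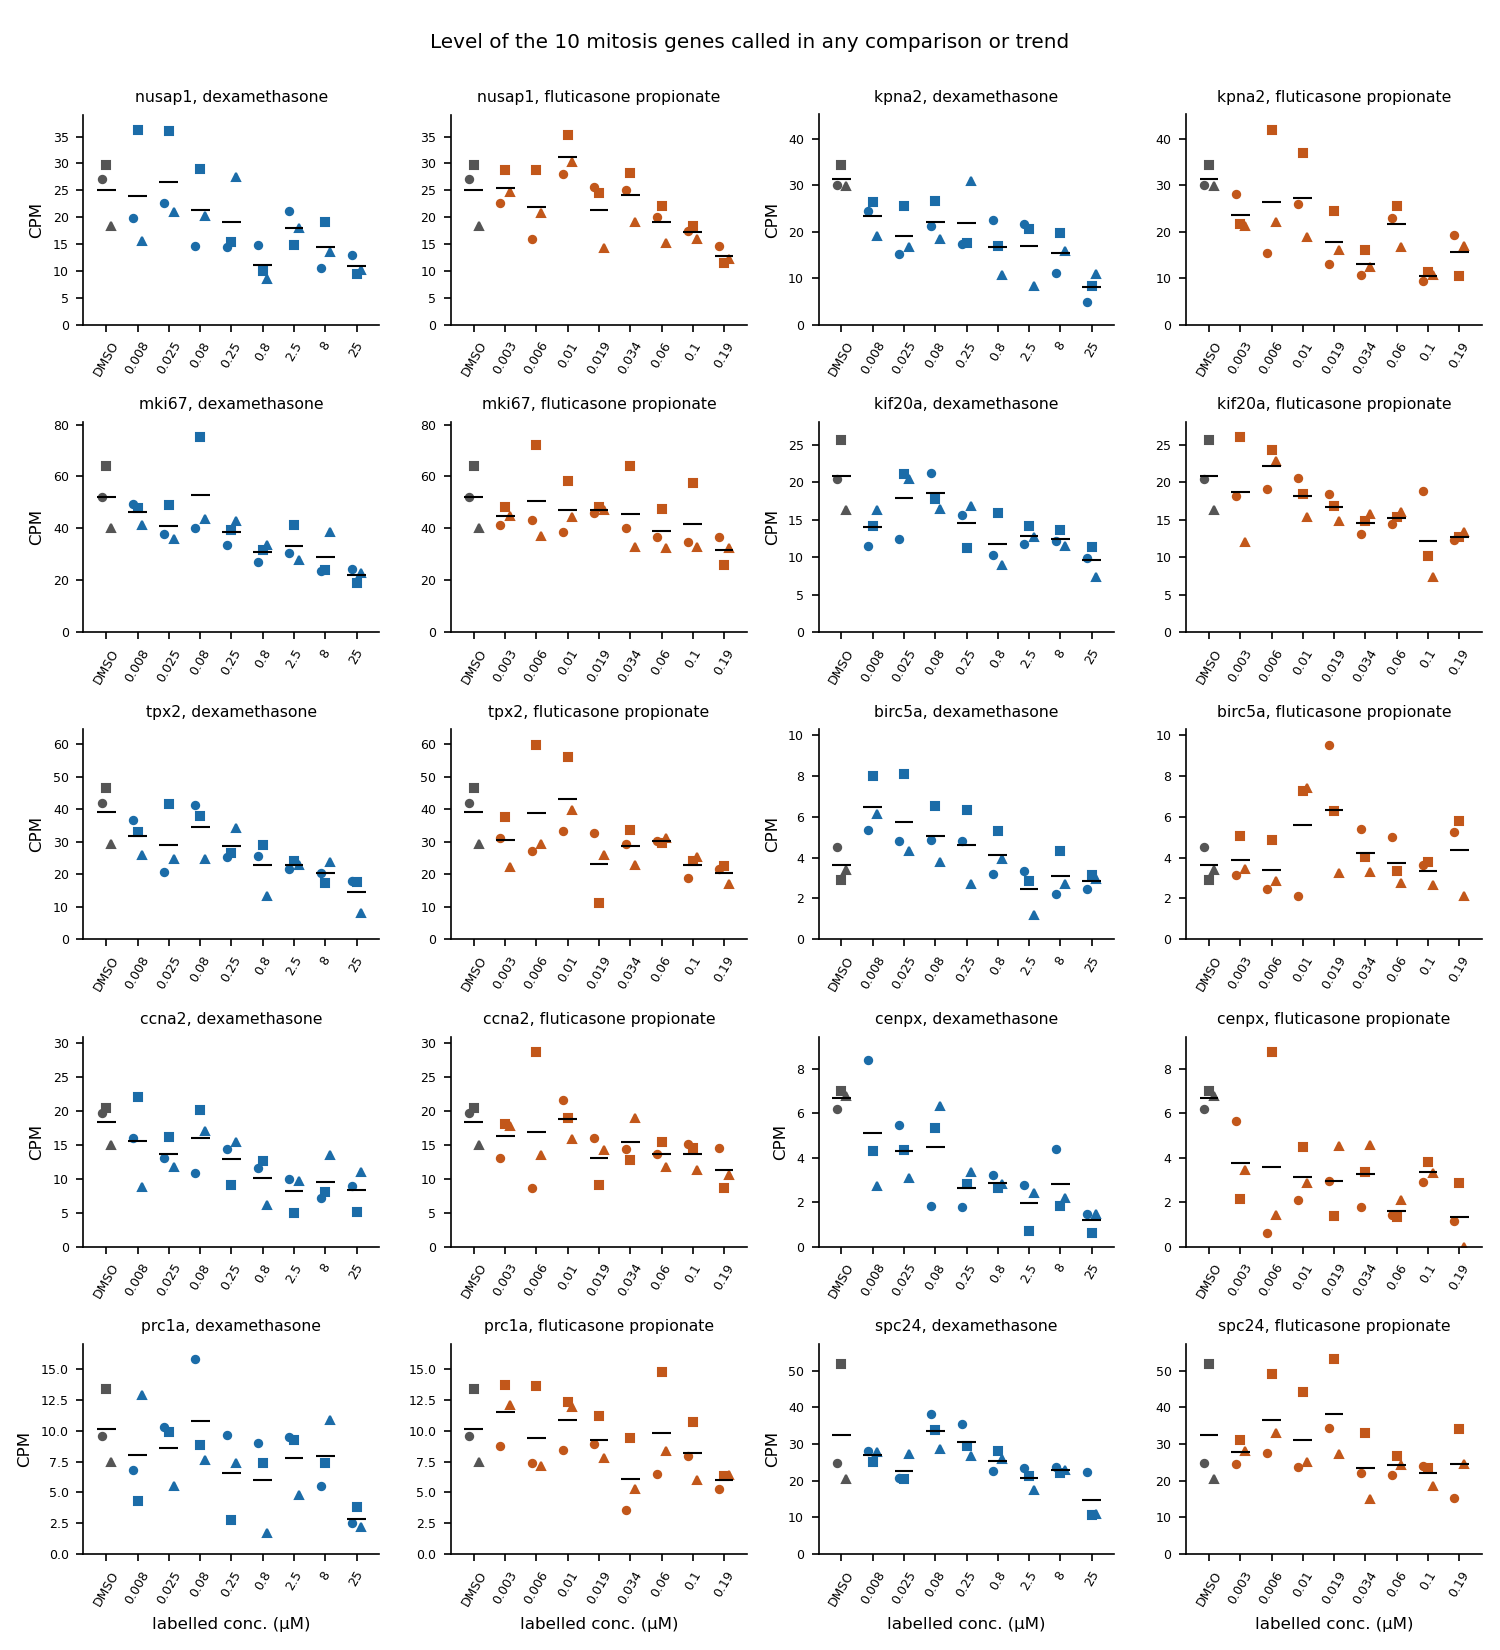
Level in CPM (vertical axes from 0) of the 10 mitosis genes called in at least 1 comparison or trend, by labelled concentration in µM, with dexamethasone in blue, fluticasone propionate in orange and DMSO in grey. Circles, squares and triangles are replicates A, B and C and bars are group means; the 3 libraries of kpna2 at 25 µM dexamethasone lie at 4.96 to 10.999 CPM and those in DMSO at 29.9 to 34.4 CPM.

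The same questions were asked of fluticasone propionate, against the same DMSO libraries. At 0.19 µM edgeR and DESeq2 called none of the 35 genes tested, where 0.0392% of all 17877 genes were called lower, and 15 had an unadjusted p under 0.05, against 7.61% of all genes. The fold changes of 32 of them were below 0, against 51.3% of all genes, with a median of -0.61 against -0.008. In 13 all treated libraries lay below all DMSO libraries, as in 6.62% of all genes. The libraries of nusap1 read 14.6, 11.5 and 12.2 CPM and those of kpna2 19.2, 10.4 and 17.001 CPM, both below every DMSO library, with uncalled fold changes of -0.99 ± 0.25 (adjusted p = 0.0857) and -1.02 ± 0.28 (adjusted p = 0.132). The libraries of tpx2 read 21.6, 22.5 and 17.001 CPM (-0.96 ± 0.30) and those of mki67 36.7, 25.9 and 32.4 CPM (-0.73 ± 0.25), also without overlap. The cenpx libraries held 2, 5 and 0 reads, and its uncalled value of -2.28 ± 0.67 is uncertain in size. Values above 0 were 0.25 ± 0.53 for birc5a, 0.22 ± 0.34 for smc2 and 0.01 ± 0.51 for nuf2. Without the filter kpna2, mki67, nusap1 and tpx2 were called, where 0.439% of all genes were, and the same 4 genes were called with only the 6 libraries compared.

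At 0.1 µM fluticasone propionate kpna2 fell, the only call among 35 genes, where 0.0224% of all genes were called lower. Its libraries read 9.42, 11.4 and 10.7 CPM, all below DMSO, and its fold change was -1.58 ± 0.31 (adjusted p = 0.0125). The call was lost without DMSO replicate A or B and without any of the 3 libraries at 0.1 µM, with adjusted p up to 0.153. DESeq2 also called 1 gene. At 0.06, 0.034, 0.019, 0.01, 0.006 and 0.003 µM neither tool called a member in the filtered fit of 27 libraries. There edgeR called 0.00559% of all genes lower at 0.003 µM and 0.00% at the others. The medians were -0.22, -0.27, 0.03, 0.08, -0.05 and -0.01 in that order. An unadjusted p under 0.05 was found for 2, 3, 4, 2, 0 and 0 members, against 4.96, 5.71, 7.15, 3.51, 3.69 and 3.10% of all genes. At 0.034 µM edgeR called kpna2 without the filter, where 0.0627% of all genes were called, and with only the 6 libraries compared.

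Among the 24 libraries treated with fluticasone propionate, 2 of 33 genes fell with the concentration, where 0.463% of all genes did. They were nusap1, with a slope of -0.49 ± 0.12 (adjusted p = 0.0130), and kif20a, with -0.43 ± 0.12 (adjusted p = 0.0386). The kif20a libraries read 18.2, 26.0 and 12.1 CPM at 0.003 µM and 12.2, 12.7 and 13.3 CPM at 0.19 µM, which overlap. Those of nusap1 read 22.5, 28.8 and 24.7 CPM at 0.003 µM and 14.6, 11.5 and 12.2 CPM at 0.19 µM, which do not. The median slope was -0.38 against -0.003 over all genes, over a range of concentrations narrower than that of dexamethasone. Outside the 41 genes, the row named ccnb1 had a slope of -0.79 ± 0.17 (adjusted p = 0.00462). Neither trend call remained without the highest concentration, without replicate B or without replicate C, and 6 genes were called with the measured in place of the nominal concentration.

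The compounds were compared in the 3 pairs of groups whose measured concentrations came closest. The highest pair was 0.055 µM dexamethasone (label 0.08 µM) and 0.0597 µM fluticasone propionate (label 0.19 µM). No member was called there by edgeR in the filtered fit of 51 libraries, where 0.0537% of 18606 genes were called higher with dexamethasone. An unadjusted p under 0.05 was found for 13 members, against 10.5% of all genes. The difference, dexamethasone minus fluticasone propionate, was above 0 for 34 of 36 genes, while 48.8% of all genes were below 0, with a median of 0.55 against 0.009 over all genes. In 12 all dexamethasone libraries lay above all fluticasone propionate libraries, as in 6.84% of all genes. The libraries of top2a read 110.5, 117.1 and 97.0 CPM with dexamethasone and 65.8, 76.7 and 80.2 CPM with fluticasone propionate, a difference of 0.54 with a 95% interval of 0.26 to 0.83 (edgeR adjusted p = 0.0665 over genes and 0.165 over genes and pairs). DESeq2 called this gene, and edgeR called it and mki67 without the filter on low counts, where 0.809% of all genes were called. For mki67 the libraries read 40.1, 75.1 and 43.7 CPM and 36.7, 25.9 and 32.4 CPM, with no overlap, and the difference was 0.75 (95% interval 0.26 to 1.23, edgeR adjusted p = 0.179). For kpna2 it was 0.51 (95% interval -0.12 to 1.14). The intervals carry no adjustment over genes.

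In the lower pairs the medians of the differences were near 0. Those of single genes ranged from -0.28 to 1.36 in the first pair given here and from -1.44 to 0.73 in the second. Between 0.0189 µM dexamethasone (label 0.025 µM) and 0.0158 µM fluticasone propionate (label 0.06 µM) the median was 0.06, and no member had an unadjusted p under 0.05, against 4.36% of all genes. Neither tool called a member, where edgeR called 0.00% of all genes. The interval of mki67 was -0.43 to 0.57 and that of top2a -0.24 to 0.32, so differences of that size remain possible. Between 0.0066 µM dexamethasone (label 0.008 µM) and 0.0072 µM fluticasone propionate (label 0.019 µM) the median was -0.08, neither tool called a member, where again edgeR called 0.00% of all genes, and 3 had an unadjusted p under 0.05, against 5.44%. The smallest p was that of kif4, with 35.1, 35.6 and 37.4 CPM against 58.9, 63.5 and 53.6 CPM and a difference of -0.70 (95% interval -1.09 to -0.31, edgeR adjusted p = 0.750). Across the series kif4 read 45.3 to 67.4 CPM in the 7 libraries with over 30% of reads outside genes, and 31.6 to 63.5 CPM in the other 44. Replicate C at 0.019 µM is among the 7. With that share as a covariate edgeR again called no member in this pair, and the kif4 value of that fit is not given here. The part of that share in the kif4 values across the series was not tested otherwise.

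Genes beyond the 41 were counted to place the set within the cell cycle. At 25 µM dexamethasone 0.642% of all genes were called lower. Of 47 DNA replication genes 9 fell and none rose, with a median of -0.85. They included the replication clamp gene pcna (-1.40 ± 0.19), the methylation maintenance gene uhrf1 (-1.30 ± 0.22), cdk2, whose kinase starts replication (-1.97 ± 0.39), and the helicase gene mcm4 (-1.30 ± 0.25). Among 74 other genes listed for mitosis, 3 fell, with a median of -0.49: the chromatin gene cdca7a (-1.56 ± 0.31), the beta-tubulin gene tubb2b (-0.74 ± 0.15) and stmn1a, for the microtubule destabiliser stathmin (-1.38 ± 0.26). None of these 3 is specific to mitosis. None of the 24 transcription regulators of the cell cycle (median -0.23) or of the 8 cyclins and kinases of the first gap phase (median -0.24) was called by edgeR. Among 26 cell cycle brakes 3 rose, ddit4 (1.71 ± 0.26), klf9 (0.99 ± 0.20) and zbtb16a (0.55 ± 0.13), all of which are also in the list of receptor targets, where 9 of 12 rose. Of all genes tested 0.680% were called higher.

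At 0.19 µM fluticasone propionate none of the 48 replication genes (median -0.38), the 76 other mitosis genes (-0.35) or the 26 brakes (0.22) was called, and 3 of 12 receptor targets rose, where 0.207% of all genes were called higher. The medians of these lists at each concentration are plotted for both compounds. Against the same DMSO libraries the medians of the 41 genes and of the replication genes lay below -0.4 from 0.8 µM dexamethasone upward.

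**Figure D5:**
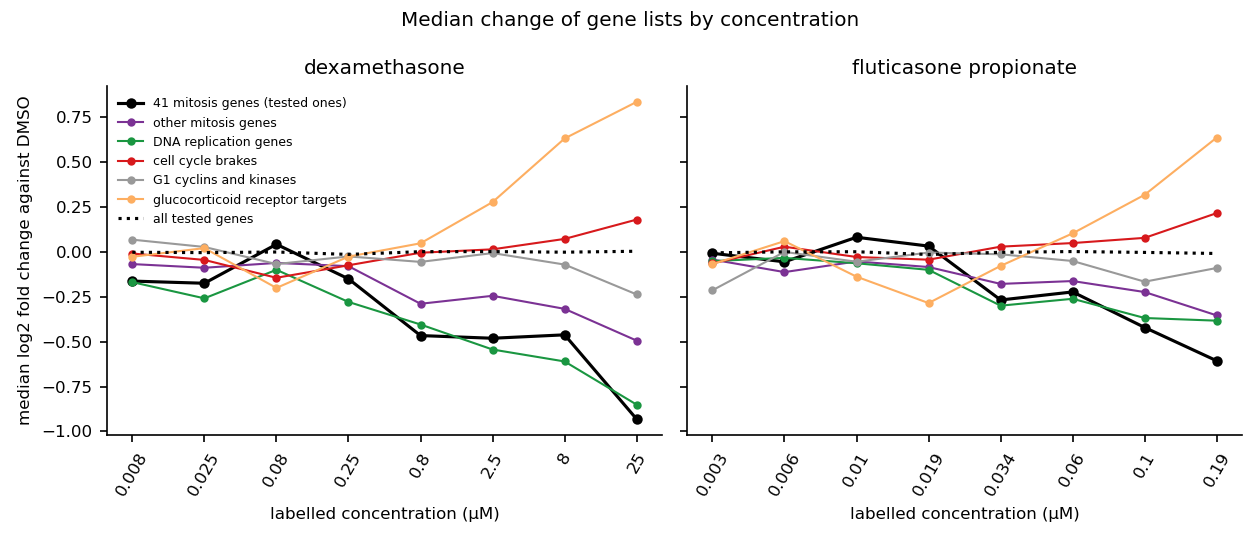
Median log2 fold change against DMSO (vertical axis) of the tested members of 6 gene lists, and of all tested genes (dotted), at each labelled concentration in µM (horizontal axis, evenly spaced), for dexamethasone on the left and fluticasone propionate on the right. The medians of the mitosis genes reach -0.93 and -0.61 at the highest concentrations, where those of the receptor targets stand at 0.84 and 0.64; brakes and receptor targets share genes, and all points share the DMSO libraries.

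Markers of the cell types of a larva were counted in the same way at 25 µM dexamethasone, where 0.642% of all genes were called lower. None of 9 retina progenitor, 12 neuron, 16 blood, 14 muscle, 6 skin and 3 germ cell markers was called. Of 12 neural progenitor markers 1 fell, fabp7a (-0.63 ± 0.17). The summed level of these markers was 746.8 to 769.0 CPM in DMSO and 665.1 to 733.9 CPM at 25 µM, without overlap. That sum includes fabp7a, which averaged 156.4 CPM in DMSO, and it was not computed without that gene. It therefore does not show a fall of the neural progenitor markers as a class. Of 18 gut, liver and pancreas markers 2 fell, fabp6 (-0.72 ± 0.13) and cpa1 (-0.69 ± 0.14), with summed levels of 9746.5 to 10434 CPM and 9417 to 10241 CPM. Of 12 cartilage and connective tissue markers 2 fell, the collagen genes col1a2 (-0.52 ± 0.10) and col1a1a (-0.43 ± 0.11), and the summed level was 6639 to 7430 CPM in DMSO and 5254 to 6133 CPM at 25 µM, without overlap. The summed level of the blood markers, of which hbae1.1, hbae3 and lyz had no reads, was 403.1 to 437.0 CPM and 315.0 to 371.5 CPM, also without overlap. Of the neural progenitor markers sox2 and sox3 had no reads in any library. Their part in the values of the mitosis genes was not tested.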

How the data were processed

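The authors deposited a table of raw read counts per gene for each compound, with identical DMSO columns, made by the QuantSeq 3′ method, in which molecules carry identifiers, per the labels. Tools named, per the submitters' processing notes and with no role, are STAR 2.7.10a, HTSeq 2.0.1, bcl2fastq 2.20.0, MultiQC 1.12, FastQC and edgeR. Not given in the sources used here are the genome build, the use of the identifiers, and the treatment of strand and multiply aligned reads. Reads of no feature (22.6 to 33.6% per library) and other unassigned rows stayed out of library sizes and tests. Deposited log2 tables of the same libraries were not used.

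Low counts were removed by filterByExpr, with a minimum count of 10 and a minimum total of 15, and the rest scaled by TMM and tested with edgeR 4.0.16 (robust quasi-likelihood F-test) in R 4.3.3, with Benjamini-Hochberg adjustment over all genes tested and calls under 0.05. A fit for each compound held its 24 libraries with the 3 of DMSO, trends were fitted to log10 of the nominal concentration over the treated libraries only, and the compounds were compared in a fit of all 51. Printed CPM use TMM factors over all 51 libraries. Fits were tested on simulated counts. Replicates differed by more than sampling noise (chi-square per degree of freedom 1.47 to 3.14).

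The members, roles and 15 further lists (405 entries, of which 344 matched a row by symbol and others through the RefSeq table of assembly fPimPro1.hap1.1) were chosen with earlier results of these data known. Library values are given for called members, mki67, cdk1 and the row named ccnb1, by rule, and for a few others chosen after their values were seen; other lists are represented by up to 4 genes with the smallest p at 25 µM. Alternatives were DESeq2 1.42.0, its size factors, no filter, other sets of libraries, a covariate for reads outside genes, measured concentrations and a replicate block. DESeq2 gave no adjusted p for some members at 25 and 0.8 µM dexamethasone, and it could not call those. Members without one in other comparisons are not listed here.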

Additional observations from a re-analysis of the deposited data

How the results depend on the processing

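Counts are of members called; depth limits them, since at 25 µM dexamethasone 24 of the 36 members tested had fewer than 20 reads in every library. At 25 µM dexamethasone DESeq2 called 4, a replicate block gave 9, reads outside genes as a covariate 10, leaving out the libraries over 30% outside genes 11, no filter 12, only the 6 libraries compared 12, all 51 libraries 8, and leaving out 1 library 3 to 8. At 8 µM the count was 3 without the filter, 1 by DESeq2, 2 with a replicate block, 3 with only the 6 libraries compared and 0 to 1 leaving out 1 library. At 2.5 µM it was 4 with only 6 libraries. At 0.8 µM it was 4 without the filter, 1 by DESeq2, 4 with a replicate block, 0 with reads outside genes as a covariate, 1 with all 51 libraries and 0 to 2 leaving out 1 library. The dexamethasone trend gave 1 without the highest concentration and 1 to 4 without 1 replicate letter. For fluticasone propionate the count at 0.19 µM was 4 without the filter, 1 with a replicate block, 1 with the covariate, 4 with only 6 libraries and 0 to 1 leaving out 1 library; at 0.1 µM it was 0 to 1 leaving out 1 library, and at 0.034 µM 1 without the filter and 1 with only 6 libraries. Its trend gave 1 without the filter, 5 by DESeq2, 6 with a replicate block, 6 with the covariate, 6 with measured concentrations, 0 without the highest concentration and 0 to 1 without 1 replicate letter. Between 0.08 µM dexamethasone and 0.19 µM fluticasone propionate it was 2 without the filter and 1 by DESeq2; between the highest concentrations it was 0 in every fit run. Without the filter, 1.16, 0.4999 and 2.44% of all genes were called in either direction at 25, 8 and 0.8 µM dexamethasone. With it the shares were 1.32, 0.194 and 2.47%. At 0.19 µM fluticasone propionate they were 0.439 and 0.246%, and in its trend 0.917 and 1.58%, without and with the filter. For the other settings no share over all genes is given here, so their counts cannot be set beside one. The causes of the changes in count were not tested.

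Some fold changes of uncalled members turned sign when 1 library was left out. At 25 µM dexamethasone the lowest and highest values were -0.43 and 0.13 for cdc20, -0.58 and 0.22 for ncapg, and -0.26 and 0.11 for prc1b. At 0.19 µM fluticasone propionate they were -0.76 and 0.074 for cenpe, -0.18 and 0.24 for cenpf, -0.27 and 0.14 for ect2, -0.19 and 0.042 for kif4, -0.39 and 0.41 for ncapg, -0.52 and 0.51 for nuf2, -0.40 and 0.27 for smc4, and -0.71 and 0.11 for spc24. With the covariate ect2 was at 0.0030 and ncapg at 0.057. No fold change of a called member changed sign. The trends were also fitted, as chosen after seeing the data, without the libraries over 30% outside genes, and called 9 and 3 members.

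Over all genes the replicate letters were not taken to pair the samples: deviations of same-lettered libraries from their group means correlated at -0.15 to 0.09 (median -0.003), and in 0 of 20 comparisons were all over 0.1. In the summed level of the 41 genes, however, B was highest in 12 of 17 groups and C lowest in 12. The replicate block raised the counts at 25, 8 and 0.8 µM dexamethasone, at 0.19 µM fluticasone propionate and in both trends. The dexamethasone trend gave 7 with it.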

Other observations

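The summed level of the 41 genes differed by replicate letter. Replicate B was the highest library in 12 of the 17 groups, among them DMSO and all 8 groups of fluticasone propionate, and replicate C the lowest in 12. The highest sums of the series were those of replicate B at 0.006 and 0.01 µM fluticasone propionate, with 878.7 and 869.8 CPM, and at 0.08 µM dexamethasone, with 789.8 CPM, each above the 770.2 CPM of replicate B of DMSO. The labels do not say what the letters stand for.

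Other genes listed for mitosis were called in the trends that use no DMSO library. With dexamethasone 4 of 70 fell, where 0.858% of all genes did, cdca7a (-0.35 ± 0.07 per 10-fold rise in concentration), stmn1a (-0.25 ± 0.06), cdca3 (-0.43 ± 0.12), which marks the mitosis inhibitor WEE1 for destruction, and the cyclin gene ccnb3 (-0.30 ± 0.05). With fluticasone propionate 6 of 71 fell, where 0.463% did, among them the kinesin gene kifc1 (-0.71 ± 0.14), the spindle pole gene aspm (-0.48 ± 0.12) and the condensin II gene ncapg2 (-0.43 ± 0.12). Of 25 brakes, 6 rose with dexamethasone, where 1.30% of all genes were called higher, including tob1a (0.13 ± 0.03) and foxo1a (0.12 ± 0.03), and 3 rose with fluticasone propionate, where 1.11% were, including foxo3b (0.21 ± 0.05).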
